A study of Mus musculus with 24 samples.

Results

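The 10 genes described here make, load or specify the amine transmitters and acetylcholine in mouse brain: Th, Ddc, Dbh, Tph2, Fev, Slc18a2, Chat, Slc18a3, Slc5a7 and Hdc. They were taken by symbol from a count table of 40836 genes, and all 10 passed the filter on low counts, which kept 20437 genes. The table holds bulk RNA-seq counts of 24 mouse brain libraries in 6 groups of 4, set by an E code (E3 or E4) and a time code (05, 10 or 15). The titles also give a month: January or February for time code 05, March or April for 10, and May or June for 15. The labels spell out neither code and give no strain, genotype, treatment, sex or age; the series title concerns ApoE4 and microglial lipids, so E4 against E3 was taken as the study's question. Each title marks its library as a biological replicate, without saying whether it is a separate animal, so p-values speak only of the spread among these samples.

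A name such as E4-10 2 gives the group and the library's number within it. Library totals ran from 37.4 to 99.5 M counts (1 M is 1000000), with a median of 48.8 M. Levels are CPM, counts per 1000000 of the library total scaled by its TMM factor, and a count of 0 in a library allows up to 0.0306 to 0.0822 CPM, for counting error only. The neuronal gene Snap25 was at 1880 to 3220 CPM in all 24 libraries, as brain tissue should have. The 8 libraries in columns whose number is a multiple of 3 were rich in cerebellum and hindbrain genes: Car8 of Purkinje cells was at 277 to 1630 CPM there and at 10.9 to 17.0 CPM in the other 16. The anterior hindbrain gene Hoxa2 was at 0.427 to 4.95 CPM in the 8 and at most 0.0220 CPM in the 16. These 8 are called the hindbrain-rich libraries below; they are E3-05 2, E4-05 3, E3-10 1, E3-10 4, E4-10 2, E3-15 3, E4-15 1 and E4-15 4. That the column number separates them was learnt from these same libraries, so the comparison of the 8 with the 16 describes them and supports nothing else.

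Amine transmitters of the brain come from small nuclei that send axons almost everywhere. Tyrosine hydroxylase (Th) starts the synthesis of dopamine and noradrenaline, aromatic amino acid decarboxylase (Ddc) makes dopamine and serotonin from their precursors, and dopamine beta-hydroxylase (Dbh) turns dopamine into noradrenaline. Tryptophan hydroxylase of neurons (Tph2) starts serotonin synthesis in the raphe nuclei, whose neurons express the transcription factor Fev, also called Pet1. The vesicular monoamine transporter (Slc18a2) loads all of these amines and histamine, which histidine decarboxylase (Hdc) makes in the tuberomammillary nucleus of the hypothalamus. Choline acetyltransferase (Chat), the vesicular acetylcholine transporter (Slc18a3) and the choline transporter (Slc5a7) mark cholinergic cells, which lie in the basal forebrain and striatum and, in the brainstem, in motor nuclei and the pontine tegmentum. Dopamine cell bodies lie mostly in the midbrain, noradrenaline cell bodies in the locus coeruleus and medulla, and the bodies, not the axons, hold most of the mRNA. In bulk tissue, fewer cells of a type and less RNA per cell cannot be told apart.

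Promoter windows of all 10 genes were taken from RefSeq (GRCm38.p6), from 250 bases before to 50 bases after the start. The Th and Slc18a2 windows are shown because their genes moved together across the 16 other libraries and because these are the 2 of the 10 whose windows hold the palindromic cyclic AMP response element TGACGTCA, here in capitals; 1.79% of 32851 windows hold it. The Dbh window is shown for the member with the widest range among those with counts in every library, with the homeodomain core ATTA in capitals; it has 3 copies, and 20.0% of windows hold 3 or more on either strand. Each runs from 200 bases before the start to 10 bases after it. These are chr7:142899986-142900195 on the minus strand for Th, chr19:59260678-59260887 on the plus strand for Slc18a2 and chr2:27165307-27165516 on the plus strand for Dbh.
Th: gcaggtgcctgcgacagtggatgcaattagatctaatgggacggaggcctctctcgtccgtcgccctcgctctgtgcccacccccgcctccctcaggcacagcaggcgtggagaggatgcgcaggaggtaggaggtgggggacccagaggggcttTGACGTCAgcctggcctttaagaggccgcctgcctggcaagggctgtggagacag
Slc18a2: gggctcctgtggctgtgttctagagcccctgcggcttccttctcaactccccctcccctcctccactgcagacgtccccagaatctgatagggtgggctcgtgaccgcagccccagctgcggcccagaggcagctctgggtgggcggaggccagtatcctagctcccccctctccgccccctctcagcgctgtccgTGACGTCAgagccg
Dbh: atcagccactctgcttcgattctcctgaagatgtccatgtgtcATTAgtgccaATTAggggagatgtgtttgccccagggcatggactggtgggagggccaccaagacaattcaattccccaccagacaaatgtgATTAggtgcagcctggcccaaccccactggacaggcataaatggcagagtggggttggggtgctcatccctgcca
The Tph2 window holds both arms of a binding element of the repressor REST downstream of the start, TTCAGCACC and GGACAG, 8 bases apart. It is shown because Tph2 was the member with the smallest p between the 8 and the 16 libraries. It lies at chr10:115184988-115185014 on the minus strand, and the arms are in capitals.
Tph2: TTCAGCACCagggttctGGACAGcgcc
The left arm alone was in 0.371% of windows, the right arm in 22.2%, and both within 12 bases on the same strand in 13 windows (0.0396%). Both strands were searched, and a match is a description of the sequence only.

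In the hindbrain-rich libraries, 5 members were higher and 5 were not called. In edgeR's quasi-likelihood fit with Benjamini-Hochberg adjustment, which held the 6 groups and a term for the column set, Dbh, Tph2, Fev, Hdc and Slc18a2 were higher, and Th, Ddc, Chat, Slc18a3 and Slc5a7 did not pass. Across all genes tested, 57.5% were called in this comparison and 30.1% were called higher, so a share of 5 in 10 is no result about the set, and the genes are read 1 by 1. The median log2 fold change of the 10 was 0.91, against 0.04 over all genes. Tph2 and Fev had no overlap between the 8 and the 16 libraries; 5.97% of all genes tested did not overlap in that direction. The plot of all 10 genes by library shows which separate and which do not.

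**Figure D1:**
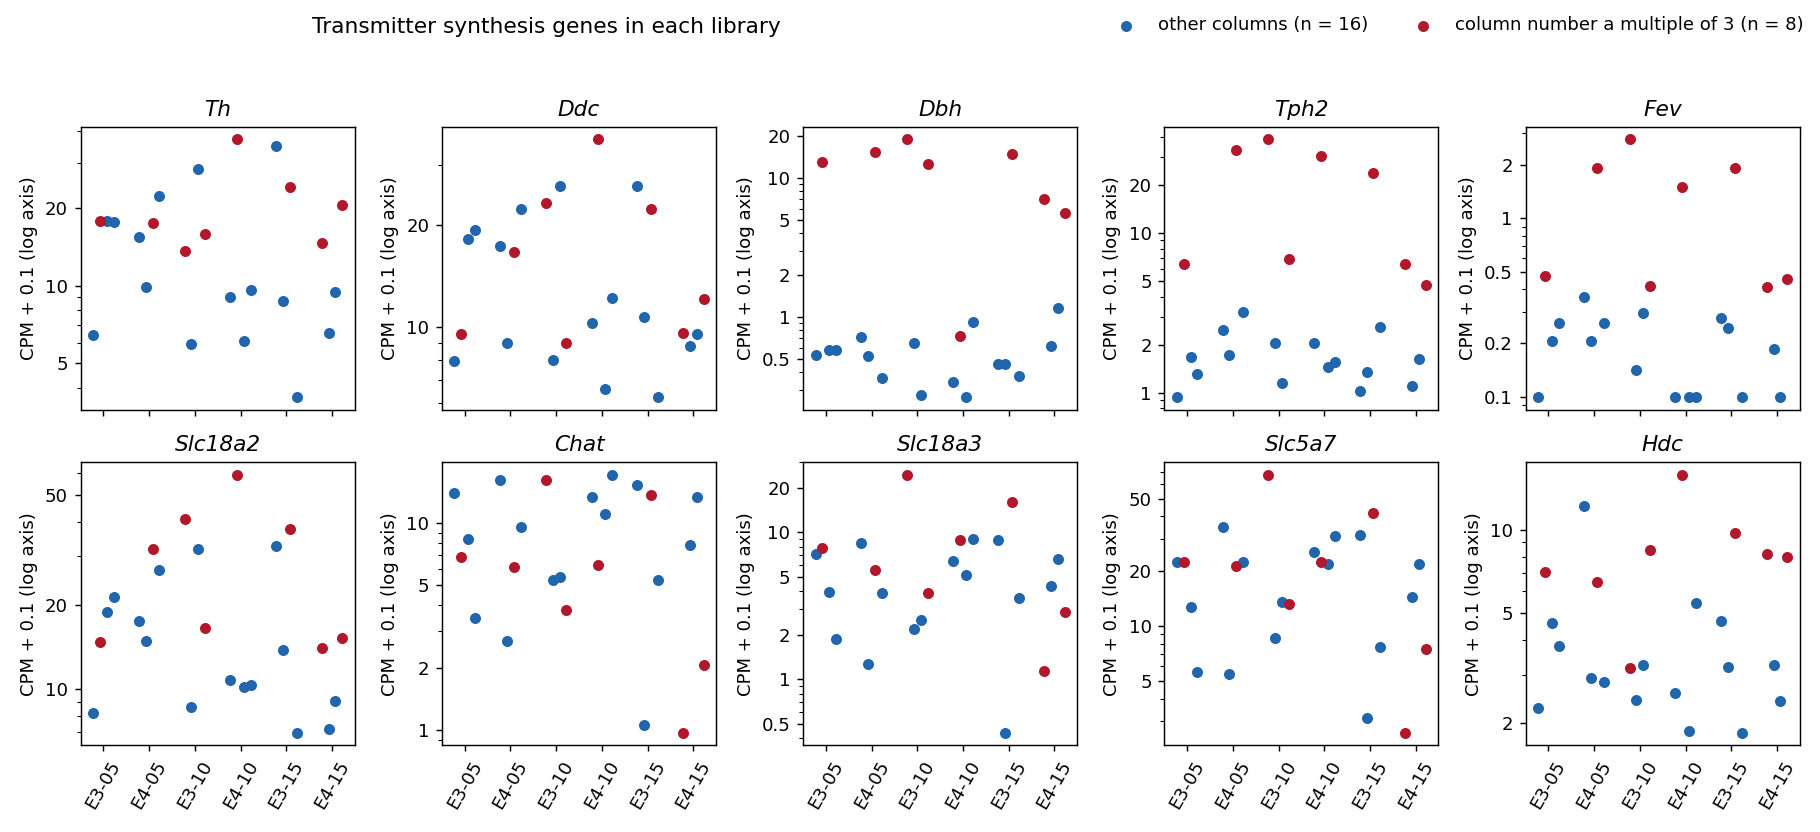
CPM + 0.1 (log axis) of each of the 10 genes in the 24 libraries, arranged by group, with the 8 libraries in columns numbered in multiples of 3 in red and the other 16 in blue. Tph2 and Fev are higher in every red library than in any blue one, 7 of the 8 red Dbh points lie above all blue points, and the cholinergic genes mix.

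Noradrenaline genes separated 7 of the 8 hindbrain-rich libraries from the rest. Dbh ranged from 0.629 to 18.8 CPM with a median of 12.7 CPM in the 8, and from 0.165 to 1.06 CPM with a median of 0.428 CPM in the 16. The exception was E4-10 2, at 0.629 CPM (36 counts), which fell inside the range of the 16; the other 7 were at 5.48 CPM (E4-15 4) or more. Dbh was higher by 4.37 on the log2 scale (SE 0.40, edgeR adjusted p = 8.84e-09). The noradrenaline transporter Slc6a2, which recaptures the transmitter, was at 13.1 CPM in E3-05 2, 23.7 in E4-05 3, 13.9 in E3-10 1, 17.1 in E3-10 4, 15.2 in E3-15 3, 9.08 in E4-15 1 and 5.81 in E4-15 4. In E4-10 2 it was at 0.524 CPM, and in the 16 it ran from 0 to 0.476 CPM with 0 counts in 8 of them. The log2 difference of Slc6a2 was 7.91 (SE 0.52, edgeR adjusted p = 1.04e-10).

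Phox2a, a transcription factor of noradrenaline neurons, was also low in E4-10 2. It had 0 counts in E4-10 2 and was at 0.239 to 0.953 CPM in the other 7 hindbrain-rich libraries. It was higher in the 8 by 5.24 on the log2 scale (SE 0.64, edgeR adjusted p = 5.23e-07), and it is a low gene, with at most 56 counts. Of the 7 noradrenaline genes listed beside the members, 3 were higher and 1 lower; the lower one was Cyb561, a cytochrome of secretory vesicles that supplies electrons to Dbh (-0.72, SE 0.09). Pnmt, which makes adrenaline, reached at most 20 counts and did not pass (-1.68, SE 0.82, adjusted p = 0.0858).

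Serotonin genes were present in all 8 hindbrain-rich libraries, E4-10 2 included. Tph2 was at 38.4 CPM in E3-10 1, 32.8 in E4-05 3, 30.1 in E4-10 2 and 23.8 in E3-15 3, and at 6.80 in E3-10 4, 6.35 in E4-15 1, 6.30 in E3-05 2 and 4.60 in E4-15 4. The 8 thus lay on 2 levels, with none between 6.80 and 23.8 CPM. The 16 ran from 0.843 to 3.12 CPM with a median of 1.49 CPM. The log2 difference was 3.44 (SE 0.29, edgeR adjusted p = 2.75e-09). Fev split the 8 the same way, with 2.67, 1.83, 1.40 and 1.81 CPM in the same 4 libraries and 0.310 to 0.376 CPM in the others. In the 16 it reached at most 0.264 CPM, with 0 counts in 6. Its log2 difference was 3.82 (SE 0.55, adjusted p = 4.69e-06).

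The serotonin transporter Slc6a4 also followed Tph2 in the 8, at 25.9, 24.1, 21.0 and 14.8 CPM in the 4 high libraries and 2.29 to 4.88 CPM in the other 4. It differed by 6.35 between the column sets (SE 0.56, edgeR adjusted p = 6.23e-09). Counts of Slc6a4 per count of Tph2 stayed within 0.498 to 0.775 across the 8, and Fev counts per 100 of Tph2 within 4.64 to 7.79. Because the 8 fall into separate levels of Tph2, no correlation is given for these pairs. Among the 16, E4-05 4 stood out with 2.57 CPM of Slc6a4 (97 counts) and the highest Tph2 (3.12 CPM), where the other 15 had at most 1.12 CPM of Slc6a4. That library also held the highest Slc6a2 (0.476 CPM), Slc6a5 (9.20 CPM) and Gata3 (14.3 CPM) of the 16. Gata3, a transcription factor of midbrain and hindbrain neurons, Slc6a5 and the other region genes outside the naming rule were chosen after their values were seen. Of 7 further serotonin genes, 4 were higher in the hindbrain-rich libraries and 2 lower. Lmx1b, a transcription factor of serotonin and dopamine neurons, was higher by 2.38 (SE 0.32). Htr1a, an inhibitory serotonin receptor, was lower by -0.95 (SE 0.18), and the transporter Slc22a3 by -1.73 (SE 0.27).

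**Figure D2:**
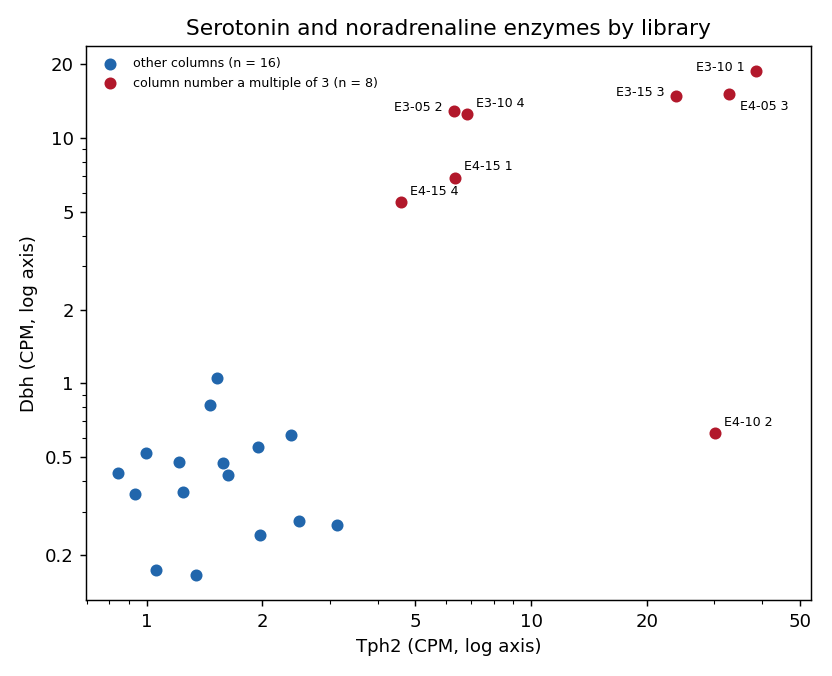
Tph2 against Dbh (CPM, both log axes) in each library, with the 8 hindbrain-rich libraries in red and named and the other 16 in blue. E4-10 2 has Tph2 at 30.1 CPM but Dbh at 0.629 CPM, and the other 7 red libraries have Dbh at 5.48 CPM or more with Tph2 at 4.60 to 38.4 CPM.

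Libraries alike in Dbh could differ in Tph2. E3-05 2 and E4-05 3 had similar Dbh (12.9 and 15.1 CPM), while Tph2 was 6.30 CPM in the former and 32.8 CPM in the latter. E3-10 4, with Dbh at 12.6 CPM, was also on the lower Tph2 level. E3-10 1 had the highest Dbh and Tph2 of all libraries, and it also had the most of the brainstem genes Slc6a5, the glycine transporter (622 CPM against 76.2 to 246 in the other 7), and Hoxb5 (47.8 against 5.59 to 27.9 CPM). It had the least Car8 of the 8 (277 CPM against 798 to 1630). The part of these region genes in the members' levels was not tested.

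Th and Ddc did not separate the column sets. Th ran from 13.5 to 36.8 CPM with a median of 17.6 CPM in the 8 and from 3.59 to 34.6 CPM with a median of 9.41 CPM in the 16, a log2 difference of 0.74 (SE 0.35, edgeR adjusted p = 0.0798). It passed without E3-10 3 (1.02, adjusted p = 0.0135), without E3-15 1 (0.93, adjusted p = 0.0168) and with limma-voom (0.91, adjusted p = 0.0175). Ddc ran from 8.88 to 35.6 CPM in the 8 and from 6.14 to 25.9 CPM in the 16 (0.40, SE 0.31, adjusted p = 0.276). The dopamine transporter Slc6a3, restricted to dopamine neurons, differed by 0.08 with an SE of 1.56 (adjusted p = 0.969), and its highest library was 205-fold above its lowest.

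The dopamine transporter divided the libraries in another way than the column number did. Slc6a3 was at 61.9 CPM in E4-10 2, 24.8 in E3-15 3 and 20.4 in E4-15 4, and at 0.405 to 2.75 CPM in the other 5 hindbrain-rich libraries. In the 16, it was at 65.4 CPM in E3-10 3, 63.9 in E3-15 1, 49.6 in E4-05 4, 41.8 in E3-05 4, 36.9 in E3-05 3, 22.5 in E4-05 2 and 19.7 in E3-15 2. The remaining 9 lay between 0.319 and 6.67 CPM. High and low libraries thus occur in both column sets and in each of the 6 groups. In the 5 hindbrain-rich libraries with little Slc6a3, Th was still at 13.5 to 17.8 CPM, and each of them had Dbh at 6.91 CPM or more. In the 9 others with little Slc6a3, Th was at 3.59 to 15.4 CPM and Dbh at most 1.06 CPM.

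**Figure D3:**
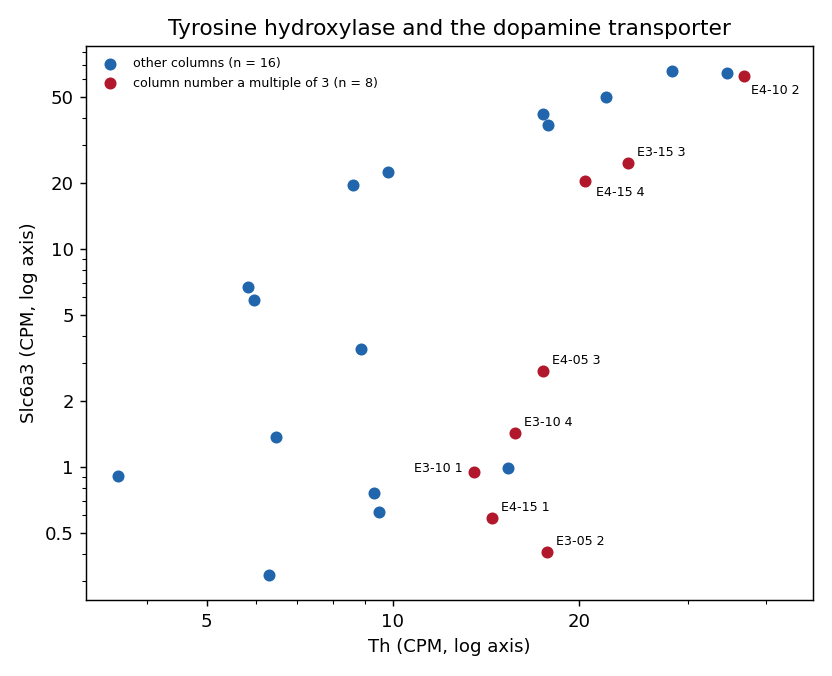
Th against Slc6a3 (CPM, both log axes) in each library, with the 8 hindbrain-rich libraries in red and named and the other 16 in blue. The red libraries E3-05 2, E4-15 1, E3-10 1, E3-10 4 and E4-05 3 hold Th at 13.5 to 17.8 CPM with Slc6a3 at 2.75 CPM or less.

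Among the 16 other libraries, Th, Ddc and Slc18a2 moved together. The Pearson r of log2 CPM was 0.974 for Th with Ddc (Spearman rho 0.944) and 0.955 for Th with Slc18a2 (rho 0.929), each with a permutation p of 2e-05, the smallest that 100000 resamples can give, and an adjusted p of 9e-05 over 18 relations. Without the 2 libraries farthest from the median of Th, E3-10 3 and E3-15 1, r was 0.963 and 0.924. In the 8 hindbrain-rich libraries the same pairs had r of 0.639 (exact permutation p = 0.103, adjusted 0.133) and 0.554 (exact permutation p = 0.168, adjusted 0.202). Without E4-10 2 and E3-15 3 these became -0.297 and -0.409, so the values rested on those 2. Th and Slc6a3 fell into separate levels in both sets and are given no r. The 5 genes closest to Th over the 16 libraries were Ddc (0.974), Slc18a2 (0.955), Ret (0.936), the receptor subunit for glial cell line-derived factors, Fign (0.908) and Fam167a (0.900), all sharing the same libraries and region mixture.

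Slc18a2 was at 14.0 to 58.8 CPM with a median of 24.2 CPM in the 8 and at 6.88 to 32.7 CPM with a median of 12.2 CPM in the 16. The highest level was in E4-10 2, followed by E3-10 1 (40.7 CPM), E3-15 3 (37.5 CPM), E3-15 1 (32.7 CPM), and E4-05 3 and E3-10 3 (31.9 CPM each). The log2 difference was 0.98 (SE 0.30, edgeR adjusted p = 0.00849), and it no longer passed without E4-10 2 (0.64, adjusted p = 0.0692). E4-10 2 was also rich in pituitary RNA, with growth hormone (Gh) at 6100 CPM, as was E3-05 4 at 7120 CPM; without both, Slc18a2 differed by 0.68 (adjusted p = 0.0524). Of these 6, E3-10 1 and E4-05 3 were high in Tph2 and low in Slc6a3, E3-15 1 and E3-10 3 high in Slc6a3 and low in Tph2, and E4-10 2 and E3-15 3 high in both.

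Of the 9 dopamine genes listed beside the members, 4 were higher and 2 lower in the hindbrain-rich libraries. Aldh1a1, an aldehyde dehydrogenase of a set of midbrain dopamine neurons, was at 163 to 222 CPM in the 8 and at 30.4 to 155 CPM in the 16 (1.43, SE 0.20). En1 and Lmx1a, transcription factors of the midbrain and its dopamine neurons, were higher by 3.61 (SE 0.66) and 1.89 (SE 0.23). Over all 24 libraries, these 3 genes did not peak where Slc6a3 did. Aldh1a1 was highest in E3-10 1, Lmx1a in E4-05 3 and En1 in E4-15 1, with Slc6a3 there at 0.953, 2.75 and 0.582 CPM. Within the 16, E4-05 4, E3-10 3 and E3-15 1 had the most Slc6a3 (49.6, 65.4 and 63.9 CPM). They also had the most Aldh1a1 (155, 131 and 101 CPM) and En1 (3.25, 2.68 and 1.95 CPM). Lmx1a was there at 1.75, 0.951 and 1.55 CPM, with E4-05 1 at 1.30 CPM. Gch1 and Foxa2, listed too, were highest in E4-10 2 (8.29 and 1.47 CPM), where Slc6a3 was at 61.9 CPM. Nr4a2, also on the list, was lower by -1.31 (SE 0.33). Drd2, the dopamine receptor of striatal and dopamine neurons, was lower by -2.11 (SE 0.34), beside the whole striatum list, of which 8 of 8 genes were lower and whose sum was at 295 to 381 CPM in the 8 and 279 to 3570 CPM in the 16. Pitx3, a defining factor of midbrain dopamine neurons, reached at most 28 counts and did not pass (-0.22, SE 0.65, adjusted p = 0.784).

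The cholinergic genes did not pass between the column sets, but their proportions differed. Chat was at 0.873 to 16.0 CPM with a median of 6.10 CPM in the 8 and at 0.959 to 17.0 CPM with a median of 8.90 CPM in the 16 (-0.43, SE 0.50, edgeR adjusted p = 0.48). Slc18a3 was at 1.05 to 24.5 CPM and at 0.336 to 8.87 CPM (0.84, SE 0.53, adjusted p = 0.18), and Slc5a7 at 2.50 to 67.3 CPM and at 3.04 to 34.8 CPM (0.43, SE 0.49, adjusted p = 0.477). E3-10 1 was the highest library for Slc18a3 and Slc5a7, and E4-10 4 for Chat. Slc18a3 counts per count of Chat were 0.912 to 1.53 with a median of 1.19 in the 8 and 0.350 to 0.660 with a median of 0.483 in the 16, with no overlap. Slc5a7 counts per count of Chat were 2.87 to 4.21 against 1.44 to 3.18, with E3-15 2 alone of the 16 inside the range of the 8. These ratios were formed after the values were known and carry no test. They depend on gene length and are compared only between libraries.

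**Figure D4:**
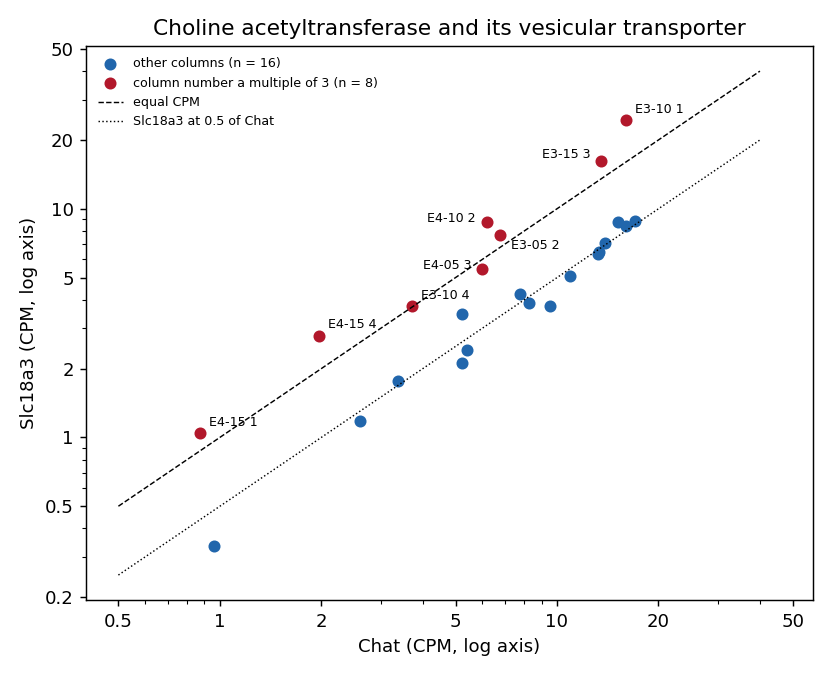
Chat against Slc18a3 (CPM, both log axes) in each library, with the 8 hindbrain-rich libraries in red and named, the other 16 in blue, and lines where Slc18a3 equals Chat and where it is 0.5 of it. The red libraries lie along the upper line and the blue ones along the lower line over the whole range of Chat.

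Slc18a3 lies within the Chat gene on the same strand in RefSeq (GRCm38.p6), and how reads that fall on both were assigned is not given in the sources used here, so the split of counts between them carries that uncertainty. Within each set the 3 genes moved together. Chat with Slc18a3 had r of 0.988 (rho 0.982) in the 16 and 0.984 (rho 0.976, exact permutation p = 0.000149) in the 8, and Chat with Slc5a7 had 0.966 (rho 0.947) and 0.994 (rho 0.976, exact permutation p = 9.92e-05). The exact p-values given for the 8 are those of r. In the 16, both r had a permutation p of 2e-05, and all 4 r had adjusted p of 0.000446 or less. All 4 rho had adjusted permutation p of 0.00119 or less. Without the 2 libraries farthest from the median of Chat, the 4 values were 0.960 to 0.984.

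Lhx8, a transcription factor of forebrain cholinergic neurons, was at 0 to 0.0680 CPM in the 8 and at 0.144 to 12.5 CPM in the 16, lower by -7.19 (SE 0.94, edgeR adjusted p = 1.54e-06). Isl1, which striatal and other neurons also use, was lower by -1.98 (SE 0.58). Prph, the peripherin filament of motor and sensory neurons, ranged from 1.98 to 34.4 CPM in the 8 and from 0.744 to 4.04 CPM in the 16 (2.30, SE 0.33), and Calca, the calcitonin gene-related peptide of motor and parabrachial neurons, at 1.67 to 10.0 CPM against 0.110 to 2.80 CPM (1.83, SE 0.34). In the 8, E3-10 1 had the most Chat, Slc18a3, Slc5a7, Prph and Calca, and E4-15 1 had the least of all 5. Of the 11 cholinergic genes listed beside the members, 10 were tested, 2 were higher and 3 lower; the motor neuron gene Mnx1 was too low to test, with at most 12 counts.

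Over the 16 libraries, the genes whose log2 CPM was most like that of Chat included Slc18a3 (0.988), Slc5a7 (0.966), Lhx8 (0.951) and AI606473, which fell into separate levels and is given no r. The lowest Chat of the 16 was in E3-15 2 (0.959 CPM), which also had the lowest Lhx8 (0.144 CPM) and Isl1 (0.623 CPM). The next were E4-05 2 and E3-05 4, with Chat at 2.60 and 3.39 CPM and Lhx8 at 0.993 and 0.899 CPM. E4-10 4, E4-05 1 and E3-15 1 had the most Chat, at 17.0, 16.0 and 15.1 CPM, with Lhx8 at 8.42, 12.5 and 10.4 CPM. The 3 libraries lowest in Chat thus had less Lhx8 than the 3 highest in it.

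Hdc was at 3.08 to 15.7 CPM with a median of 7.99 CPM in the 8 and at 1.75 to 12.1 CPM with a median of 2.96 CPM in the 16, higher by 1.34 (SE 0.30, edgeR adjusted p = 0.000596). Its order did not follow that of the other members. E4-10 2 had the most (15.7 CPM) and E3-10 1 the least of the 8 (3.08 CPM), while the other 6 lay within 6.36 to 9.67 CPM. Those 6 had Car8 at 1140 to 1630 CPM, E4-10 2 at 798 CPM and E3-10 1 at 277 CPM. Among the 16, E4-05 1 was highest at 12.1 CPM and E4-10 4 next at 5.36 CPM. E4-05 1 also had the most vasopressin (Avp, 51.9 CPM) and oxytocin (Oxt, 53.8 CPM) of all libraries, and Hmx3, a transcription factor of the hypothalamus, at 2.64 CPM. In the 8, Hmx3 was highest in E3-10 1 (3.18 CPM), the library with the least Hdc. Among the 16, E4-10 1 had Avp at 15.9 CPM with Hdc at 2.47 CPM. By the sum of the 8 listed hypothalamus genes, the 16 were led by E4-05 1 at 181 CPM. Next came E3-15 1 (81.9 CPM), E4-10 1 (71.3 CPM), E4-10 4 (69.45 CPM) and E3-05 3 (68.6 CPM). Hdc in these was at 12.1, 4.59, 2.47, 5.36 and 4.51 CPM. In the 8, the sum was highest in E4-10 2 (65.7 CPM) and E3-15 3 (27.8 CPM), which also had the most Hdc. E3-10 1 came next (7.20 CPM), with the least Hdc. The relation of Hdc to this sum was not tested. The sum of the 8 listed hypothalamus genes went the other way from Hdc between the column sets. Its median was 4.62 CPM in the hindbrain-rich libraries and 40.1 CPM in the 16. Of these genes 1 was called higher and 1 lower, with a median log2 fold change of -1.79.

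Mast cells, the other source of histamine, were checked by 8 listed genes, of which only Kit passed the filter. Of the 8 mast cell genes listed, the high-affinity IgE receptor gene Fcer1a had 0 counts in all libraries, and Cma1, Mcpt4, Cpa3, Tpsb2, Tpsab1 and Ms4a2 reached at most 20 counts. The sum of the list was 110 to 263 CPM in the 8 and 41.9 to 85.5 CPM in the 16, but it consisted almost wholly of Kit, which cerebellar neurons also express. Of 7 further histamine genes, 4 were lower and 0 higher: the receptors Hrh1 (-0.66, SE 0.10), Hrh2 (-0.59, SE 0.10) and Hrh3 (-1.70, SE 0.10) and the degrading enzyme Hnmt (-0.66, SE 0.07). Hdc with Slc18a2 had r of 0.447 (permutation p = 0.0944, adjusted 0.131) and rho of 0.632 (permutation p = 0.0101, adjusted 0.0201) in the 16, so the rank relation passed and the linear one did not. In the 8 the pair had r of 0.106 (exact permutation p = 0.823, adjusted 0.872) and rho of 0.190 (exact permutation p = 0.665). In the 16, r was 0.701 without E4-05 1 and E4-10 4. The 5 genes most like Hdc over the 16 were Ranbp17 (0.868), Il13ra1 (0.866), Psme1 (0.860), Mesd (0.853) and Gap43 (0.850), of which none is a transmitter gene.

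For Dbh and Tph2, the 16 libraries held little to compare, with 8 to 54 and 37 to 191 counts. The closest genes were Fnbp4 (0.848), Lsmem1 (0.838), Capsl (0.815), Ucn and Gm30055 (0.788) for Dbh, and Gcdh (0.754), Hoxc5, Dus2 (0.722), Slc6a2 and Gm36445 (0.709) for Tph2; Ucn, Hoxc5 and Slc6a2 fell into separate levels and are given no r. In the 8, Dbh and Slc6a2 had r of 0.979 (exact permutation p = 0.00382, adjusted 0.00764). Their rho was 0.762 (exact permutation p = 0.0368, adjusted 0.0601), so the linear relation passed and the rank one did not. The r fell to 0.662 without E4-10 2 and E4-15 4 and thus rested on those 2.

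Enzymes that serve several amines differed less. Of 8 genes of the tetrahydrobiopterin cofactor and of amine breakdown, 2 were higher and 1 lower in the hindbrain-rich libraries. Monoamine oxidase A (Maoa) was higher by 0.43 (SE 0.06) and the plasma membrane monoamine transporter Slc29a4 by 1.20 (SE 0.14). Sepiapterin reductase (Spr), which completes the cofactor, did not pass (0.10, SE 0.05, adjusted p = 0.11). Over all 48 pathway genes tested beside the members, 15 were higher and 13 lower, with a median of 0.13.

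E4-10 2 and E3-10 1, chosen after their values were seen, held different sets of these genes. E4-10 2 had the most Th (36.8 CPM), Ddc (35.6 CPM), Slc18a2 (58.8 CPM) and Hdc (15.7 CPM) of the 24, Tph2 on the upper level and Slc6a3 at 61.9 CPM, with Dbh at 0.629 CPM, Slc6a2 at 0.524 CPM and 0 counts of Phox2a. It also held the peptides of the lateral hypothalamus, Hcrt at 18.8 CPM and Pmch at 20.0 CPM, where the other 7 hindbrain-rich libraries had at most 1.91 and 4.92 CPM. E3-10 1 had the most Dbh, Tph2, Fev, Slc18a3 and Slc5a7, Slc6a3 at 0.953 CPM, and Hcrt at 0.102 CPM.

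The comparison of E4 with E3 gave no called member at any time code. At time code 05, 0% of all genes were called (0 of 20437 by edgeR, 549 at an unadjusted p under 0.05). Of the 10 members, 9 had a log2 fold change above 0, with a median of 0.33 against 0.005 over all genes. Several members moved together across libraries, so their signs are not independent. Tph2 had the smallest p. It was at 0.843, 6.30, 1.58 and 1.22 CPM in E3-05 1 to 4 and at 2.38, 1.63, 32.8 and 3.12 CPM in E4-05 1 to 4. The groups overlapped, and the highest value of each was its hindbrain-rich library. The log2 fold change was 1.32 (SE 0.50, unadjusted p = 0.0148, edgeR adjusted p = 0.994).

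At time code 10, 0.00979% of genes were called (2 genes, neither of them a member), and 5 of 10 members lay above 0, with a median of 0.02 against -0.002 over all genes. Dbh had the smallest p, at 18.8, 0.551, 0.173 and 12.6 CPM in E3-10 1 to 4 and 0.241, 0.629, 0.165 and 0.813 CPM in E4-10 1 to 4. E3-10 held 2 hindbrain-rich libraries, both high in Dbh, and E4-10 held 1, E4-10 2, which was low in it. The log2 fold change was -1.26 (SE 0.74, edgeR adjusted p = 0.943). With limma-voom it was -3.77 and passed (adjusted p = 0.0328); without E4-10 2 it was -0.35 in edgeR, and among the 16 other libraries alone 0.11.

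At time code 15, 0% of genes were called (0 by edgeR, 391 at an unadjusted p under 0.05). Of the 10 members, 1 lay above 0, with a median of -0.78 against 0.003 over all genes. Slc18a2 had the smallest p, at 32.7, 13.8, 37.5 and 6.88 CPM in E3-15 1 to 4 and 14.0, 7.08, 8.95 and 15.2 CPM in E4-15 1 to 4. The groups overlapped. The log2 fold change was -1.24 (SE 0.50, unadjusted p = 0.0213, adjusted p = 1), and -0.79 (unadjusted p = 0.126) without E3-15 1. Tph2 lay at 1.32 at time code 05 and -1.10 (SE 0.50) at time code 15; the test of that difference gave -2.42 (SE 0.70, unadjusted p = 0.00248, adjusted p = 0.994).

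**Figure D5:**
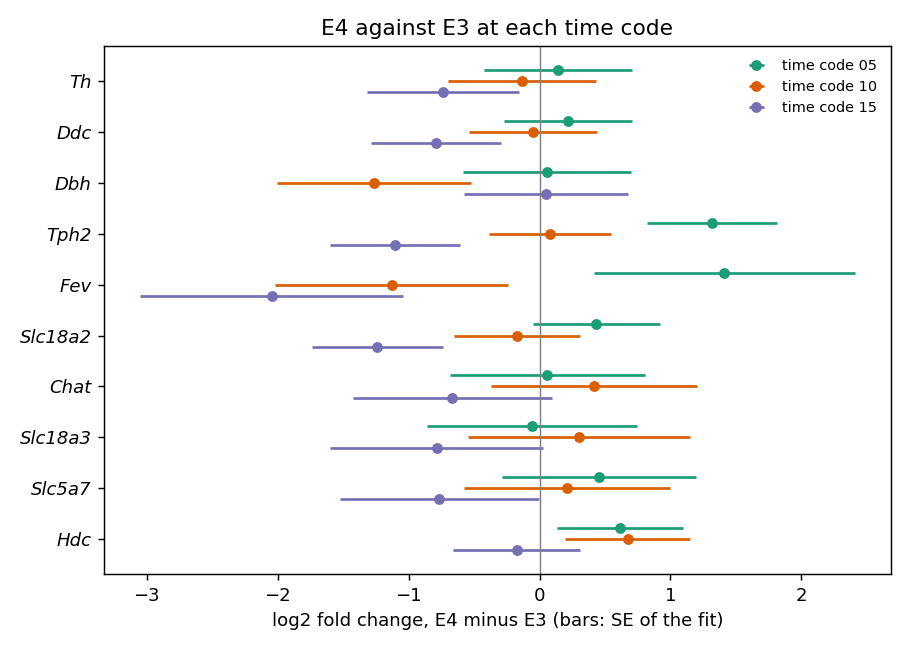
Log2 fold change of E4 minus E3 for each of the 10 genes at time codes 05, 10 and 15. Bars give the SE derived from the F test in the fit to all 24 libraries, 4 per group. At time code 05, 9 of 10 points lie above 0, and at time code 15, 9 of 10 lie below it, with no gene of the 10 called at any time code. Several of these genes moved together across libraries, so the points are not independent.

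Averaged over time codes, 0% of genes and 0 of 10 members were called between E4 and E3 (557 genes and no member at an unadjusted p under 0.05). The log2 fold changes were 0.37 for Hdc (SE 0.28), 0.10 for Tph2 (SE 0.28), -0.03 for Slc5a7 (SE 0.45), -0.06 for Chat (SE 0.45), -0.18 for Slc18a3 (SE 0.49) and -0.21 for Ddc (SE 0.28). They were -0.24 for Th (SE 0.33), -0.33 for Slc18a2 (SE 0.28), -0.39 for Dbh (SE 0.39) and -0.59 for Fev (SE 0.56). Dbh was at -1.54 with limma-voom (unadjusted p = 0.000212, adjusted p = 1), -1.37 with no column term, -0.84 without E4-10 4 and -0.09 without E4-10 2, and Fev at -2.08 without E4-10 2 (unadjusted p = 0.0157, adjusted p = 1). Hdc had the smallest p (unadjusted p = 0.194, edgeR adjusted p = 1). With SEs of this size, small differences were not detectable.

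Time codes did not separate the members either. Each time code has its own titled months, so time code and month cannot be told apart. Between time codes 10 and 05, 0% of genes were called (824 at an unadjusted p under 0.05), and Hdc had the smallest p of the members (-0.36, SE 0.35, adjusted p = 0.999). Between 15 and 05, 0.0538% of genes were called (11 genes), and Slc18a2 had the smallest p of the members (-0.45, SE 0.35, adjusted p = 0.956). Between 15 and 10, 0.00489% were called (1 gene), and Tph2 had the smallest p of the members (-0.66, SE 0.34, adjusted p = 0.678). These comparisons share libraries. None of the 48 pathway genes was called in any of the 7 comparisons of E and time codes. The spread of CPM within groups was large. Th was at 12.7 ± 6.13 to 17.7 ± 14.2 CPM (SD, n = 4) across the 6 groups. Chat was at 5.98 ± 5.75 to 11.8 ± 4.52 CPM, and Tph2 at 2.48 ± 2.56 to 12.0 ± 17.7 CPM. These SDs include the split between hindbrain-rich and other libraries, which the fit held in its column term. They are therefore not the spread against which the differences were tested.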

How the data were processed

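RNA of 24 mouse brain samples was extracted with TRIzol and sequenced as polyA RNA-seq. The deposited table gives counts per gene; the submitters' processing notes name HISAT2 2.1.0, featureCounts 2.0.6 and mm39, and the annotation, strand setting and handling of read pairs are not given in the sources used here. Even numbers made up 62.6 to 70.8% of counts from 1 to 19, so many read pairs may have been counted as 2 reads.

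From these counts, edgeR 4.0.16 in R 4.3.3 was run with TMM factors, its expression filter (20437 genes kept) and quasi-likelihood tests. The model held 6 groups and a term for column numbers that are multiples of 3 (17 residual degrees of freedom); a fit without that term is an alternative. Calls are at a Benjamini-Hochberg adjusted p of 0.05 over all genes kept. Each edgeR SE is the absolute log2 fold change divided by the square root of the F value of its test. It is imprecise where the change is near 0. Correlations used log2 CPM with a prior count of 2 and permutation tests in SciPy 1.17.1; where a gene had a gap of over 1 on the log2 scale, with at least 2 libraries on each side, no r was given. Other fits used RLE or upper-quartile factors, no filter, a strict filter (1 CPM in 8 libraries), DESeq2 1.42.0, limma-voom (limma 3.58.1), the replicate number, the month in the title, the 16 other columns alone, and each library left out. Because months lie within time codes, the month fit compares time codes through their February, April and June libraries only.

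The members and gene lists were chosen with earlier results of these data known. Named were all members, the 3 plasma membrane amine transporters, up to 4 genes of each list with the smallest p between columns, and the 5 genes most like each of 5 members; genes named beyond that were chosen after their values were seen. On simulated data, edgeR recovered 73% of 2-fold and 89% of 4-fold changes between columns with 5 false calls, and 54% and 83% for E4 against E3 at time code 05 with 8 false calls, each among 20437 genes. The changed genes were drawn at random from all genes kept, so these are not the rates for the members. Member SEs for E4 minus E3 at time code 05 ran from 0.48 (Hdc) to 0.997 (Fev). No pair of libraries held identical counts. Some genes of the lists are counted but not reported by name here.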

Additional observations from a re-analysis of the deposited data

Results flagged for a closer look

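Each of the 10 genes was checked in the 6 groups of 4 libraries (60 in all) and in the 8 hindbrain-rich libraries (10 in all). The check looked for a library set apart by a gap that is large beside the range. It flags about 1 in 20 groups by chance where values are normally distributed and alike in source. The groups of 4 mix hindbrain-rich with other libraries, so that rate does not hold for them. In all, 20 values stood apart. For Tph2 these were E3-05 2 (6.30 CPM), E4-05 3 (32.8 CPM), E3-10 1 (38.4 CPM), E4-10 2 (30.1 CPM) and E3-15 3 (23.8 CPM), each the highest of its group. For Fev they were E4-05 3 (1.83 CPM), E3-10 1 (2.67 CPM), E4-10 2 (1.40 CPM) and E3-15 3 (1.81 CPM). For Dbh they were E3-05 2 (12.9 CPM), E4-05 3 (15.1 CPM) and E3-15 3 (14.8 CPM). All of these are hindbrain-rich libraries, whose groups hold 1 or 2 such libraries each.

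For Th, E3-05 1 stood below its group at 6.31 CPM, the nearest library being at 17.5 CPM. E4-10 2 stood above its group at 36.8 CPM (nearest 9.49 CPM) and above the other hindbrain-rich libraries (nearest 24.0 CPM). It also stood apart for Slc18a2 at 58.8 CPM (nearest 10.7 CPM). E3-10 1 stood above its group for all 3 cholinergic genes, with Chat at 16.0 CPM (nearest 5.40 CPM), Slc18a3 at 24.5 CPM (nearest 3.75 CPM) and Slc5a7 at 67.3 CPM (nearest 13.5 CPM). For Hdc, E3-10 4 stood apart at 8.37 CPM, the nearest library being at 3.16 CPM.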

How the results depend on the processing

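Over 1508 alternative values, 40 fold changes of members turned direction, 0 of them in the comparison of columns, and the smallest adjusted p among the 40 was 0.984. Members called between columns numbered 4 to 6 in every alternative run. The libraries without Gh-rich or Hbb-bs-rich samples were chosen after seeing the data; the cause of each change below was not tested. Depth limits Fev and Dbh most in the 16 other libraries, where they had at most 12 and 54 counts.

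Genes called between time codes 15 and 05 (11) became 7 with upper-quartile factors and with the strict filter, 36 with DESeq2, 2 with the month and 0 with limma-voom, with no column term, in the 16 other columns, and without the Gh-rich or the Hbb-bs-rich libraries. For E4 against E3 at time code 10 (2) they became 5 with no filter, 40 with DESeq2, 4 with limma-voom (1 of them a member, Dbh), 1 without the Hbb-bs-rich libraries, and 0 with no column term, in the 16 other columns and without the Gh-rich libraries. DESeq2 called 18 between 10 and 05 (0) and 17 between 15 and 10 (1), where no column term, the month and the 16 other columns gave 0. Between time codes, the month fit compares the February, April and June libraries, so its counts are not of the same comparison. Leaving out 1 library gave 0 to 3, 0 to 10, 0 to 2 and 0 to 3 for E4 against E3 at 10, 15 against 05, 10 against 05 and 15 against 10.

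Same-numbered libraries had a median correlation of -0.0149 over 60 pairs, against 0.0129 over 180 pairs with different numbers, and 4 of 24 were closest to their own number, so the numbers were not taken to pair libraries. With a replicate block, 1 gene was called for E4 against E3 at 10, 1 for 15 against 05 and 0 for 15 against 10, and the averaged E4 minus E3 turned to 0.14 for Chat, 0.10 for Slc18a3 and 0.23 for Slc5a7.

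Averaged E4 minus E3 also turned for Chat to 0.0562 with limma-voom, 0.0570 with no column term and 0.69 in the 16 other columns, for Slc18a3 there to 0.67, for Slc5a7 to 0.75 and for Dbh to 0.43. Without turning, averaged Dbh moved to -1.54 with limma-voom, and averaged Fev to -1.90 without the Gh-rich and -1.18 without the Hbb-bs-rich libraries. The averaged value turned for Th to 0.0049 with limma-voom, and without the Hbb-bs-rich libraries to -0.0636 for Tph2, 0.0396 for Slc5a7 and -0.0740 for Hdc. Dbh at 10 was 0.11 in the 16 other columns, and Hdc between 10 and 05 was 0.0208 with no column term. Tph2 between 15 and 10 was 0.51 with the month, a fit that compares the June with the April libraries and so is not the same comparison. Leaving out 1 library gave averaged values of -0.26 to 0.17 for Chat, -0.36 to 0.17 for Slc18a3, -0.20 to 0.24 for Slc5a7, -0.43 to 0.0102 for Th and -0.0324 to 0.34 for Tph2, and -0.53 to 0.0622 for Hdc between 10 and 05.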
